A study of Mus musculus with 10 samples.

Results

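The cytosolic ribosomal protein genes were followed across 5 groups of mouse cells from a reprogramming study. A gene was a member when its symbol was Rpl or Rps followed by a number, with or without a final letter or a paralog mark such as the l of Rpl39l, or when it was Rpsa, Rplp0, Rplp1 or Rplp2. Among 12393 genes with a probe set of a single symbol, 48 met this rule, through 100 probe sets. Each gene was read through the probe set with the highest mean over all arrays. Of the 48 genes, 47 passed the filter, a log2 value over 4 on 2 arrays or more, and were tested. The exception was Rpl3l, a muscle-type paralog of Rpl3, which stayed at or below 3.58 on all 10 arrays. Another 28 ribosomal protein genes, among them Rpl3, Rpl5, Rpl10 and Rplp1, were named only by probe sets that also carry other symbols, and those are described separately.

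The groups were iPSCs grown in 2i/serum, iPSCs co-cultured with MEFs, secondary MEFs after 32 days of Yamanaka factor expression, and the Sox2-positive and Sox2-negative fractions of such day 32 cells. iPSCs are induced pluripotent stem cells, MEFs are mouse embryonic fibroblasts, and the Yamanaka factors are Oct4, Sox2, Klf4 and Myc. Every sample was kept in standard mouse embryonic stem cell medium unless stated otherwise, and the fractions come from RNA FACS, the flow sorting of cells by a stained RNA. Each group held 2 arrays, replicates a and b, and nothing in the labels says whether these were separate cultures, so that p-values here speak only for the spread among the arrays, which may be technical. The labels do not say from which line or clone the secondary MEFs came, whether feeder MEFs were removed before RNA extraction, or which of 2 NuGEN amplification kits a sample received. In bulk samples such as these, fewer cells of a type and less RNA per cell cannot be told apart.

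The arrays fell into classes by their 18S ribosomal RNA control probes. The probe set for the 3′ end of 18S read 5.25 to 6.55 on the 4 arrays of iPSC in 2i/serum and of day 32, here called low 18S arrays, and 11.35 to 13.22 on the 6 arrays of iPSC with MEFs and of both fractions, the high 18S arrays. All 12 pluripotency markers exceeded 4 on every array except those of the Sox2-negative fraction, where 8 and 6 of 12 did and Zfp42, Utf1 and Lin28a were at or below 4 on both. Of 12 fibroblast markers, 9 exceeded 4 on each day 32 array, 0 and 1 on the Sox2-positive arrays, 4 and 7 on the Sox2-negative arrays, 5 and 7 on those of iPSC in 2i/serum, and 6 and 4 on those of iPSC with MEFs. Among the defining fibroblast genes, Col1a2, Thy1 and Postn stayed at or below 4 on both day 32 arrays, and Col1a1, Col1a2 and Col3a1 on both Sox2-positive arrays. Sox2, the gene of the sort, had means of 9.96 in Sox2-positive cells and 4.29 in Sox2-negative cells.

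Ribosomal proteins build the small (Rps) and large (Rpl) subunits of the ribosome around the ribosomal RNAs. They are needed in nearly equal amounts and in every cell, and their messenger RNAs are among the most abundant. Most of these mRNAs begin with a C followed by a run of pyrimidines, the terminal oligopyrimidine or TOP tract, through which mTOR signalling and LARP1 set their translation. Growing pluripotent cells make many ribosomes, and a few paralogs, such as Rpl39l, are found mainly in the male germ line and in embryonic stem cells, whereas the standard genes are expressed everywhere.

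The TOP tract is a sequence feature that the choice of members did not use. RefSeq start sites (GRCm38.p6) were found for 42 of the 48 genes. In 8 of the 42 (19.0%) the annotated first base was a C followed by at least 4 pyrimidines. The same was true of 813 of 27025 genes with a RefSeq promoter (3.01%) and of 222 of 7025 tested genes (3.16%). The 8 windows below hold 15 bases before the start and 15 from it, 5′ to 3′ on the gene's strand, with the tract in capitals, and are shown because the tract stands exactly at their start.

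Rpl14, chr9:120571502-120571531, plus strand: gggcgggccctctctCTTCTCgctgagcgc
Rpl35, chr2:39005117-39005146, minus strand: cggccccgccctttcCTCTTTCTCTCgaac
Rpl38, chr11:114668565-114668594, plus strand: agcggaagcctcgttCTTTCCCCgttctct
Rplp2, chr7:141447636-141447665, plus strand: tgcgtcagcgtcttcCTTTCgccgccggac
Rps10, chr17:27635230-27635259, minus strand: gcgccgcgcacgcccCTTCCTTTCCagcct
Rps18, chr17:33955651-33955680, minus strand: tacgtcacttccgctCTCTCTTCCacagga
Rps27, chr3:90213634-90213663, minus strand: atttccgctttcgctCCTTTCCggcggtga
Rps6, chr4:86857353-86857382, minus strand: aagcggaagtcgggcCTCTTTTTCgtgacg

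When the tract was allowed to begin within 5 bases of the annotated start, 20 of 42 members (47.6%) held it, beside 21.2% of all genes with a promoter and 24.1% of the tested ones. The annotated starts were not checked against the starts used in these cells. A gene without the tract here may therefore still have one. The paralog windows show how this limit sorts them. Rpl22l1 and Rpl39 hold tracts of 8 and 5 bases that begin within 5 bases of the start, and in Rpl39l and Rps4x none begins there. The Rpl39l window does hold a pyrimidine run after a C that begins further upstream and ends just before the start. Only the limit of 5 bases leaves it out.

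Rpl22l1, chr3:28805493-28805522, plus strand: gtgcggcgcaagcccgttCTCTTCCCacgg
Rpl39, chrX:37085208-37085237, minus strand: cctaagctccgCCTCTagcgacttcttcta
Rpl39l, chr16:10170213-10170242, plus strand: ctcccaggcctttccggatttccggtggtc
Rps4x, chrX:102189377-102189406, minus strand: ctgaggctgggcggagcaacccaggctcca

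In the whole 300 bases around the start, searched on both strands, CCGGAAG, a core of ETS factor sites, stood in 21 of 42 members (50%). It stood in 9.93% of all genes with a promoter and in 21.2% of the tested genes. AAGATGGC, a core of the YY1 site, stood in 4 members (9.52%), beside 3.19% of all genes with a promoter and 5.59% of the tested ones. TATAAA stood in 6 members (14.3%), beside 15.7% of all genes with a promoter and 8.71% of the tested ones. A match says only that these letters are in the window.

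The members were near the top of the scale on every array. The median member read 12.04 and 12.07 on the arrays of iPSC in 2i/serum, 12.6 and 12.66 with MEFs, 11.58 and 12.06 at day 32, 12.23 and 12.04 in the Sox2-positive fraction, and 11.91 and 12.04 in the Sox2-negative fraction. The median of all tested genes was 7.7 to 7.76 on the low 18S arrays and 6.03 to 6.53 on the high 18S arrays, so the median member stood between percentiles 95.6 and 99.1 of all genes on every array. Of the 47 members, 36 exceeded 10 on all 10 arrays. A few probe sets read far lower. Those of Rpl37 and Rps27 exceeded 4 only on the 4 low 18S arrays. That of Rpl39 exceeded 4 on 4 high 18S arrays only, and that of Rpl39l on 7 arrays.

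**Figure D1:**
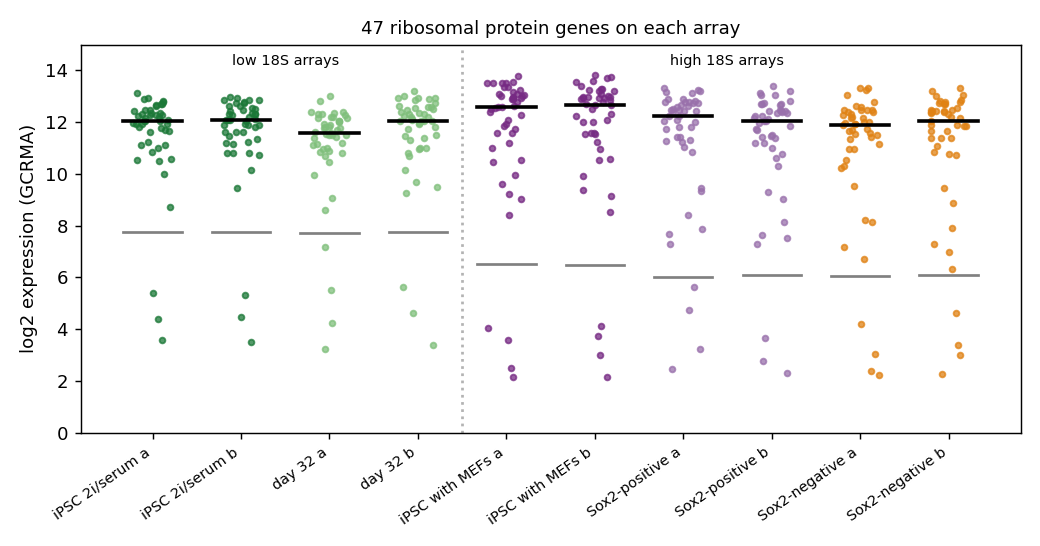
Log2 expression (GCRMA) of the 47 tested ribosomal protein genes on each of the 10 arrays, with the median member as a black bar and the median of all 8599 tested genes as a grey bar. The median member lies between 11.58 and 12.66 on all arrays, while the median of all genes is lower on the 6 high 18S arrays than on the 4 low 18S arrays.

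Replicates lay close for most members. Replicates a and b differed by a median of 0.1 in iPSC in 2i/serum, 0.16 in iPSC with MEFs, 0.23 in Sox2-positive cells and 0.25 in Sox2-negative cells. Day 32 stood apart: replicate b exceeded replicate a in 43 of 47 members, by a median of 0.45, against 0.08 over all genes. The summed log2 value of the 12 pluripotency markers was also lower in day 32 replicate a, at 117.7, than in replicate b, at 130.9, and their part in the difference was not tested. The members' counts and medians for day 32 are therefore also given without replicate a.

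Between the Sox2-positive and Sox2-negative fractions the members hardly differed, apart from Rps4l and Rpl39l. Differences are log2 differences from limma, with a gene called when its p adjusted by Benjamini-Hochberg over 8599 genes was under 0.05. Of the 47 members 1 was called higher in the Sox2-positive fraction and 0 lower, where 12.5% of all tested genes were called, 6.86% higher and 5.65% lower. At an unadjusted p under 0.05 the counts were 2 higher and 0 lower, where 14.5% of all tested genes were higher and 14.4% lower. The median member differed by 0.17, against -0.02 over all genes, 39 of 47 being above 0 and 45 lying within 0.5 of it. For 38 members the 95% interval of the difference lay within 1 log2 unit of 0 on both sides. The arrays of the fractions did not overlap in 14 members, 13 of them with the Sox2-positive arrays higher, where 51.6% of all tested genes did not overlap, 25.8% with the Sox2-positive arrays higher. The large subunit genes had a median difference of 0.18 (n = 25) and the small subunit genes of 0.15 (n = 22).

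Rps4l, a gene named as Rps4-like beside the X-linked Rps4x of the small subunit, was the member called. It read 8.4 and 8.15 in Sox2-positive cells and 6.71 and 7 in Sox2-negative cells. The Sox2-positive arrays were both higher, by 1.42 (SE 0.36), or 2.68-fold, with an adjusted p of 0.0344. The call was lost with array weights (adjusted p = 0.1134), in a fit of these 4 arrays alone (adjusted p = 0.0865), and when any 1 of the 4 arrays was left out (adjusted p = 0.0654 to 0.1162), while the difference stayed between 1.27 and 1.56. Rps4x, in contrast, read 11.99 and 11.98 against 11.74 and 11.9, a difference of 0.16 with a 95% interval of -0.37 to 0.7.

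Rpl39l had the largest difference among the members without being called. It read 5.62 and 7.3 in Sox2-positive cells and 2.24 and 4.61 in Sox2-negative cells, so the arrays did not overlap but both groups spread widely. The difference was 3.03 (SE 0.96, 95% interval 0.86 to 5.21, adjusted p = 0.0714), and without Sox2-negative replicate b it was called (4.22, adjusted p = 0.0427). Its ubiquitous partner Rpl39 read 4.74 and 3.65 against 4.18 and 3.39 through a probe set near the detection limit.

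None of the stalk genes and of the genes tied to specific roles that are given here was called between the fractions, and each 95% interval held 0. Rplp0, the base of the large subunit stalk, read 11.83 and 11.75 in Sox2-positive cells and 11.7 and 11.86 in Sox2-negative cells, a difference of 0.01 (95% interval -0.52 to 0.54). Rplp2, a stalk tip protein, differed by 0.32 (95% interval -0.34 to 0.98). Rpl11, which can bind the p53 regulator Mdm2, differed by 0.17 (95% interval -0.38 to 0.72). The same holds for the small subunit: Rpsa, which is also known as the laminin receptor, differed by 0.22 (95% interval -0.4 to 0.84). Rps19, a gene mutated in Diamond-Blackfan anaemia, differed by 0.36 (95% interval -0.44 to 1.16). Rpl38, a large subunit protein known for a role in translation of Hox mRNAs, differed by 0.22 (95% interval -0.33 to 0.77). These intervals still allow differences of up to about 1 log2 unit.

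Against iPSC with MEFs, the other group of the high 18S class, both fractions read lower for most members. In the Sox2-positive fraction 41 of 47 members lay below iPSC with MEFs, with a median of -0.49, which is close to the -0.45 of all genes. Of the 47 members 2 were called higher and 5 lower, 14.9% in all, where 35.9% of all tested genes were called, 6.13% higher and 29.8% lower. In the Sox2-negative fraction 44 lay below, with a median of -0.61 against -0.5 over all genes, and 1 was called higher and 15 lower, or 34%, where 47.5% of all tested genes were called, 12% higher and 35.6% lower. Both comparisons use the same iPSC arrays. The shift depended on the scaling: after quantile normalization the members' medians were 0.1 and -0.06, and the calls were 2 higher and 0 lower, and 3 higher and 2 lower. Over all genes quantile normalization left 7.55% called higher and 11% lower in the Sox2-positive fraction, and 15% higher and 20% lower in the Sox2-negative fraction.

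**Figure D2:**
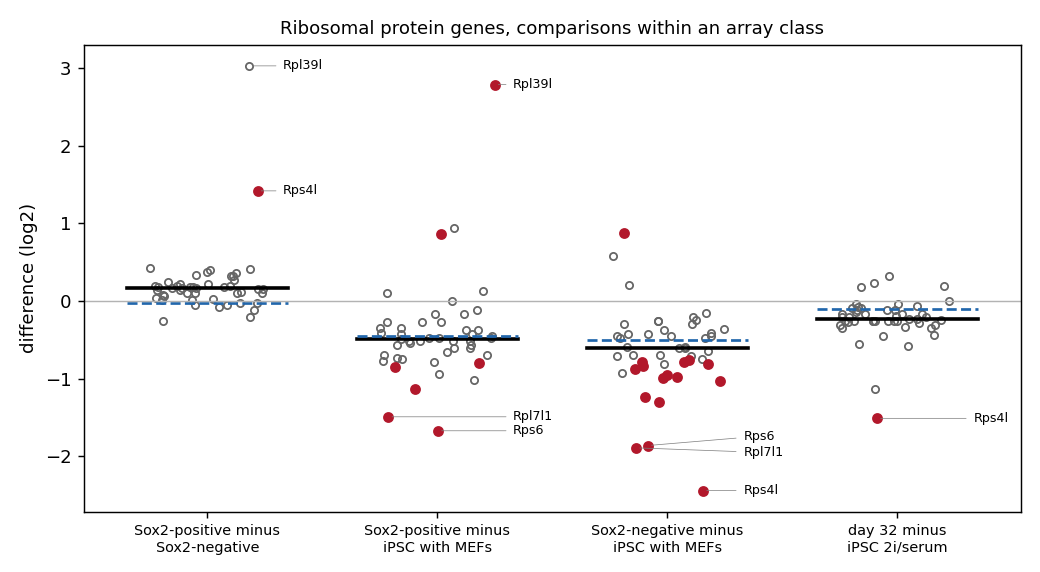
Log2 difference of each of the 47 ribosomal protein genes in the 4 comparisons made within an array class; filled red points are called (adjusted p under 0.05), the black bar is the median member and the dashed blue bar the median of all 8599 tested genes. The members' medians lie at 0.17, -0.49, -0.61 and -0.23, and the points that stand apart are Rpl39l, Rps4l, Rps6 and Rpl7l1.

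Rps6, the small subunit protein that S6 kinases phosphorylate downstream of mTOR, was among the largest falls in both fractions. It read 9.05 and 9.13 in iPSC with MEFs, then 7.3 and 7.54 in Sox2-positive cells and 8.16 and 6.31 in Sox2-negative cells. Every fraction array was below both iPSC arrays, and the Sox2-negative replicates were far apart. The difference was -1.67 (SE 0.49, 3.18-fold lower, adjusted p = 0.0276) for the Sox2-positive fraction. It was -1.86 (3.62-fold lower, adjusted p = 0.0134) for the Sox2-negative fraction. After quantile normalization the differences were -0.91 (adjusted p = 0.2478) and -1.16 (adjusted p = 0.1118), and the calls were lost.

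Rpl7l1, a paralog of Rpl7 with a role in ribosome assembly, read 9.97 and 9.93 in iPSC with MEFs, then 7.88 and 9.04 in Sox2-positive cells and 8.21 and 7.9 in Sox2-negative cells. It was 2.81-fold lower in the first of these fractions (adjusted p = 0.0133) and 3.72-fold lower in the second (adjusted p = 0.0030). The second call held under every alternative tried, while the first was lost after quantile normalization (-0.7, adjusted p = 0.1923). Rpl7 itself read 12.6 and 12.52, 12.4 and 12.04, and 12 and 12.21 in the same order and was not called in either.

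Rps25, a small subunit protein known for a role in internal initiation, read 10.45 and 10.58 in iPSC with MEFs, then 9.47 and 9.29 in Sox2-positive cells and 9.54 and 8.89 in Sox2-negative cells. The fall was 2.2-fold (adjusted p = 0.0165) and 2.46-fold (adjusted p = 0.0063), and both calls were lost after quantile normalization. Rpl41, the smallest ribosomal protein, fell 1.8-fold in the Sox2-positive fraction (adjusted p = 0.0364), from 11.58 and 11.56 to 10.84 and 10.61, and differed by -0.02 after quantile normalization. Rpl12 was the other member called lower in the Sox2-positive fraction, at -0.8.

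In the Sox2-negative fraction the list of called falls was longer, and Rps4l led it. Rps4l read 9.23 and 9.36 in iPSC with MEFs against 6.71 and 7, a 5.43-fold fall (adjusted p = 9.55e-04) that was called under every alternative tried. In the Sox2-positive fraction it differed by -1.02 and was not called (adjusted p = 0.0523), and it was called with a stricter filter (adjusted p = 0.0429) and in a fit of the compared arrays alone (adjusted p = 0.0322). Rpsa fell by 0.98 and Rps3 fell by 0.99 in the Sox2-negative fraction, and the remaining called falls, from Rpl12 at -1.23 to Rpl38 at -0.76, included Rpl8, Rpl11, Rpl13a, Rplp2, Rps10 and Rps4x.

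The called rises were few and dim. Rpl39l read 3.59 and 3.75 in iPSC with MEFs, below 4 on both arrays, and 5.62 and 7.3 in the Sox2-positive fraction, at least 5.5-fold higher (adjusted p = 0.0489). That call was lost after quantile normalization, without the filter, with averaged probe sets, with probe sets without a suffix, and when any 1 of the 4 arrays was left out (adjusted p = 0.0568 to 0.2219). In the Sox2-negative fraction Rpl39l differed from iPSC with MEFs by -0.24 (adjusted p = 0.8493), and by 0.94 without Sox2-negative replicate a. Rps27, whose probe set stayed at or below 4 on all arrays of these groups, was called higher in both fractions and has no fold.

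Calls against iPSC with MEFs were lost when an array was left out. Each such fit leaves 1 array in a group and has less power, so a lost call does not by itself show dependence on that array. In the Sox2-positive fraction none of the 7 calls was kept when either array of iPSC with MEFs was left out, 1 (Rps25) without Sox2-positive replicate a, and 2 (Rpl7l1 and Rps27) without Sox2-positive replicate b. In the Sox2-negative fraction the calls kept were 6 and 4 of 16 when the first or the second array of iPSC with MEFs (replicate a or b) was left out, 5 without Sox2-negative replicate a, and 14 without Sox2-negative replicate b. Rpl12, Rpl7l1, Rps25 and Rps4l were kept in each of those 4 fits.

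Within the low 18S class, day 32 cells and iPSC in 2i/serum had nearly the same levels. Of 47 members 0 were called higher and 1 lower at day 32, where 7.73% of all tested genes were called, 5.23% higher and 2.5% lower. At an unadjusted p under 0.05 the counts were again 0 and 1, where 12.5% of all tested genes passed in each direction. The median member lay at -0.23 against -0.1 over all genes, and 42 of 47 lay below 0. This shift rested on 1 array: without day 32 replicate a the median was 0.04, and without replicate b it was -0.47. For 37 members the 95% interval lay within 1 log2 unit of 0.

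Rps4l was again the member called. It read 10.5 and 10.82 in iPSC in 2i/serum and 8.6 and 9.7 at day 32, a difference of -1.51 (SE 0.36), or 2.85-fold lower (adjusted p = 0.0376). Both day 32 arrays were below both iPSC arrays, and the day 32 replicates were over 1 log2 unit apart. The call was lost in a fit of the compared arrays alone (adjusted p = 0.1131), without either array of iPSC in 2i/serum (adjusted p = 0.0998 and 0.2163), and without day 32 replicate a, where the difference was -0.96 (adjusted p = 0.2547). Rpl39l read 8.74 and 10.17 in iPSC in 2i/serum and 7.16 and 9.49 at day 32, which overlap, and differed by -1.13 (adjusted p = 0.5203) and by 0.04 without day 32 replicate a. Rps6 read 11.11 and 11.25 against 11.11 and 11.01, a difference of -0.12 (95% interval -1.23 to 0.99).

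Rps4l varied over the groups where its partner Rps4x varied less, and Rpl39l varied too. The probe set of Rpl39, at 3.22 to 4.74, was too near the detection limit to show whether Rpl39 varied. Across the array classes the class and the cells cannot be told apart. Over the 5 groups Rps4l had means of 10.66 (SD 0.23, n = 2) in iPSC in 2i/serum, 9.29 (SD 0.09, n = 2) in iPSC with MEFs, 9.15 (SD 0.78, n = 2) at day 32, 8.28 (SD 0.18, n = 2) in Sox2-positive cells and 6.86 (SD 0.21, n = 2) in Sox2-negative cells. In that order, iPSC with MEFs and day 32 overlap, and the other neighbours do not. Rps4x ranged only from 11.82 to 12.63.

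Rpl39l had means of 9.46 (SD 1.01, n = 2) in iPSC in 2i/serum, 8.32 (SD 1.65, n = 2) at day 32, 6.46 (SD 1.19, n = 2) in the Sox2-positive fraction, 3.67 (SD 0.11, n = 2) in iPSC with MEFs and 3.43 (SD 1.68, n = 2) in the Sox2-negative fraction. Its replicates were the most widely spread of the paralogs in 4 of these groups, and along this order iPSC in 2i/serum overlapped day 32, day 32 the Sox2-positive fraction, and iPSC with MEFs the Sox2-negative fraction. In each of the 5 groups the array with the higher Rpl39l also had the higher summed level of the 12 pluripotency markers: 137.2 against 133.4 in iPSC in 2i/serum, 127.1 against 126.5 with MEFs, 130.9 against 117.7 at day 32, 120.5 against 116.3 and 65.7 against 64.2 in the fractions. In each group that array was replicate b, so the markers and the replicate letter cannot be told apart here. The number of markers over 4 went the other way in the Sox2-negative fraction, with 8 on replicate a and 6 on replicate b. The part of the markers or of the letter in the spread of Rpl39l was not tested. Between iPSC in 2i/serum and iPSC with MEFs, where Rpl39l was near background, 0 of these 12 markers were called higher and 4 lower with MEFs. Over all tested genes 8.15% were called higher and 52.9% lower. The markers' median of -0.99 was close to the -1 of all genes, and all 12 markers exceeded 4.

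**Figure D3:**
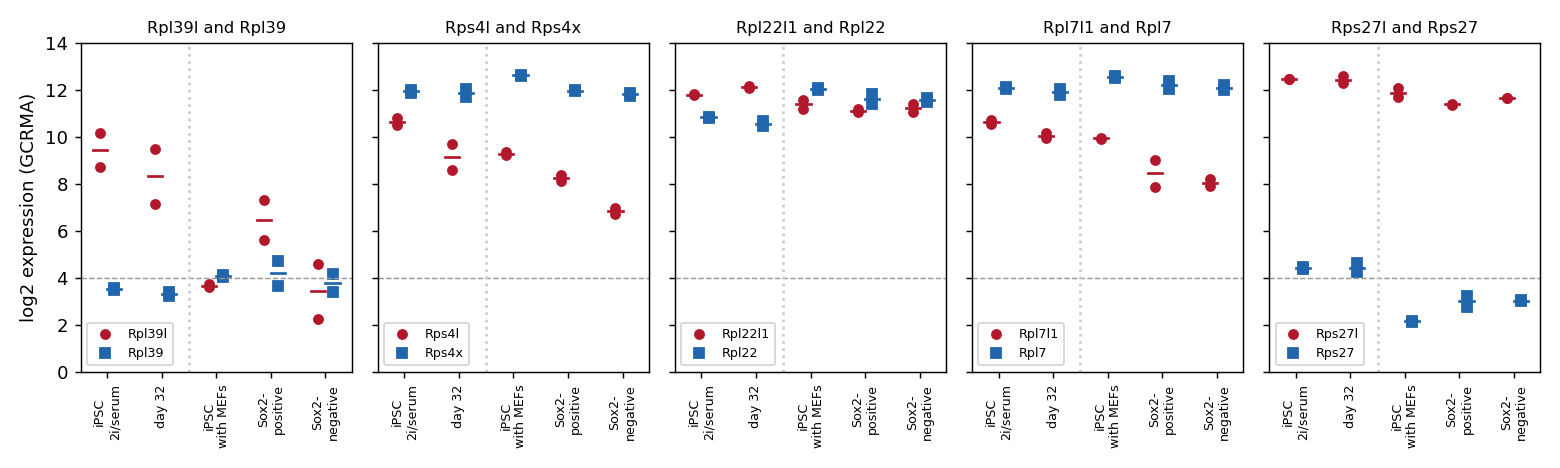
Log2 expression of 5 paralog pairs on every array (points) with group means (bars), the low 18S groups left and the high 18S groups right of the dotted line; the dashed line marks a log2 value of 4. Rps4l falls from 10.66 to 6.86 across the groups and Rpl39l lies near or below 4 in iPSC with MEFs and the Sox2-negative fraction, while Rps4x and Rpl7 stay at or above 11.7.

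In the other pairs each gene was read against its own level on the arrays of the other class. Rpl22l1, a paralog of Rpl22 known to be controlled by it, read 11.81 and 11.82 in iPSC in 2i/serum, 12.2 and 12.08 at day 32, and 11.06 to 11.6 on the 6 high 18S arrays. Rpl22 read 10.46 to 10.86 on the low 18S arrays and 11.41 to 12.08 on the high 18S arrays. Rps27l, a p53-responsive paralog of Rps27, read 12.31 to 12.59 on the low 18S arrays and 11.38 to 12.08 on the high 18S arrays. The levels of different probe sets cannot be set against each other, so these values show only how each probe set used here changed. The other kept probe set of Rpl22 fell instead. Its means were 9.34 in iPSC in 2i/serum and 9.66 at day 32, and 6.48 to 7.42 in the high 18S groups. After centring, Rpl22l1 and Rps27l differed by 0.4 and 0.42 between the fractions and day 32, so the direction of these 2 depended on the scaling.

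Comparisons across the array classes cannot tell the class from the cells. They are iPSC with MEFs against iPSC in 2i/serum, and the mean of the fractions against day 32, which share no array. The median of all genes was -1 in the first and -1.49 in the second, high minus low 18S arrays, while the members' medians were 0.48 and 0.12. In the first, 14 members were called higher and 9 lower, where 61.1% of all tested genes were called, 8.15% higher and 52.9% lower. In the second, 8 were called higher and 12 lower, where 79.2% of all tested genes were called, 5.18% higher and 74.1% lower. The members' split moved with the scaling: after quantile normalization it was 6 higher and 7 lower in the first and 21 higher and 4 lower in the second, and after centring each array on its median 36 and 3, and 34 and 2. Over all genes quantile normalization left 15.1% higher and 21.2% lower in the first and 17.2% and 33.9% in the second, and centring 26.4% and 17.8%, and 21.8% and 26%.

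The counts also changed when an array was left out, which lowers the power to call. Without 1 of the arrays, the calls of the first comparison fell from 23 to between 12 and 14, whichever of the 4 was left out. In the second comparison, without day 32 replicate a, 12 of the 20 calls were kept, 1 higher and 11 lower, and the members' median became -0.12.

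Most members lay on the same side of 0 in both comparisons. Of 47 members 42 (89.4%) had the same sign in both, 8 were called higher in both, 8 lower in both and 0 in opposite directions. Over all 8599 genes 85% had the same sign, 284 were called higher in both, 4234 lower in both and 95 in opposite directions. Across the 47 genes, which are not independent replicates, the differences correlated with a Pearson's r of 0.89, beside 0.71 across all genes. All comparisons share one deposited normalization.

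**Figure D4:**
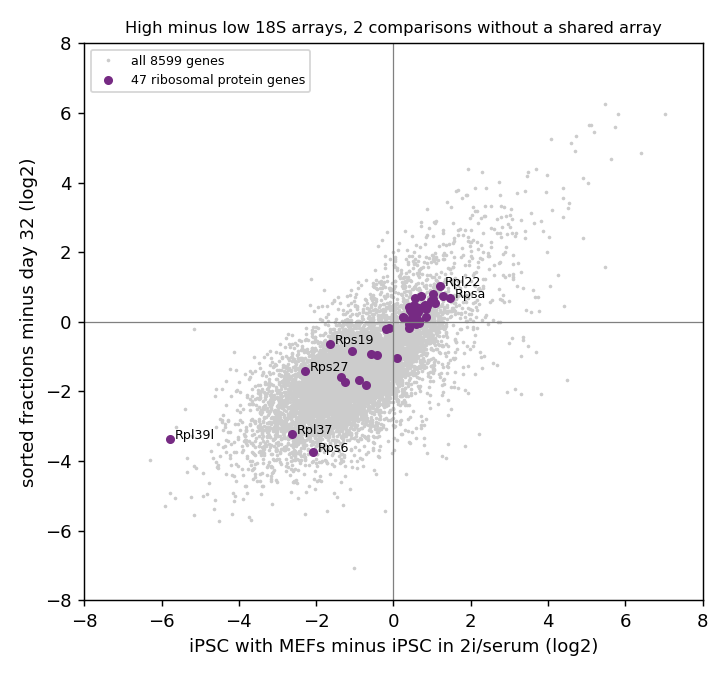
Log2 difference of high minus low 18S arrays in the mean of the sorted fractions against day 32 (vertical) and in iPSC with MEFs against iPSC in 2i/serum (horizontal) for all 8599 tested genes (grey) and the 47 ribosomal protein genes (purple). Most members lie just above 0 on both axes, and Rpl39l, Rpl37, Rps6 and Rps27 lie far below 0 on both.

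The rises were led by abundant members of both subunits. Rpsa read 11.95 and 11.91 in iPSC in 2i/serum and 13.51 and 13.27 with MEFs, a 2.75-fold rise (adjusted p = 0.0019). Rps3, a small subunit protein at the mRNA entry site, rose 2.45-fold (adjusted p = 0.0038), from 11.93 and 12.09 to 13.38 and 13.22. Rpl22 rose 2.3-fold and Rpl38 2.11-fold.

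Against day 32 the largest rises in the fractions were those of Rpl22 (2.03-fold, adjusted p = 0.0019), Rps29 (1.74-fold, adjusted p = 0.0122), Rps24 (1.67-fold, adjusted p = 0.0125) and Rps3 (1.66-fold, adjusted p = 0.0197). The last 3 of these calls were lost without day 32 replicate a. Rps24 turned to -0.89 (adjusted p = 0.0079) when read through probe sets without a suffix, and was not called when its probe sets were averaged (0.28, adjusted p = 0.2056). Rpl22 turned to -0.7 when its probe sets were averaged, and in the first comparison to -0.83.

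The falls were led by dim probe sets and by Rps6. Rpl39l fell at least 43.9-fold from iPSC in 2i/serum to iPSC with MEFs (adjusted p = 9.52e-04) and 10.4-fold from day 32 to the fractions (-3.38, adjusted p = 0.0046), where 1 Sox2-negative array lay below 4. That call was lost after quantile normalization (-2.2, adjusted p = 0.0663), after centring (-2.04, adjusted p = 0.0708) and without day 32 replicate b (-2.22, adjusted p = 0.0649), and the difference was -4.55 without day 32 replicate a (adjusted p = 0.0032). Rpl37 fell from 5.39 and 5.32 to 2.49 and 2.98, at least 2.56-fold (adjusted p = 8.87e-05), and at least 3-fold in the second comparison (adjusted p = 8.78e-06). Rps6 fell 4.26-fold (adjusted p = 0.0055) and 13.3-fold (adjusted p = 6.07e-05), from 11.11 and 11.01 at day 32 to between 6.31 and 8.16. The first of these was lost after centring (-0.97, adjusted p = 0.1410), and the second, -3.73, was still called after quantile normalization (-2.73), after centring (-2.39) and without day 32 replicate a (-3.68).

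Rps27 fell at least 1.35-fold in the first comparison. Rps19 fell by 1.64 in log2 there, from 11.79 and 11.61 to 9.6 and 10.52 (3.12-fold, adjusted p = 0.0036), and differed by -0.53 after centring (adjusted p = 0.2589). In the second, Rpl7l1 fell by 1.81 in log2 (3.51-fold, adjusted p = 5.97e-04), but differed by -0.61 after quantile normalization (adjusted p = 0.1205) and -0.47 after centring (adjusted p = 0.2452). Rps4l fell by 1.37 in the first comparison (adjusted p = 0.0094) and fell by 1.58 in the second (adjusted p = 0.0013). Neither call held under these scalings: after quantile normalization the differences were -0.89 (adjusted p = 0.0957) and -0.26 (adjusted p = 0.5309), and after centring -0.25 (adjusted p = 0.5996) and -0.24 (adjusted p = 0.5493). The first of them was also lost without replicate b of iPSC in 2i/serum (adjusted p = 0.0597) and without replicate a of iPSC with MEFs (adjusted p = 0.0542).

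Different probe sets of one gene gave opposite results across the classes. Of 19 members with at least 2 probe sets above the filter, 13 had probe sets of opposite sign between the iPSC groups, and in 8 probe sets were called in both directions (Rpl13a, Rpl22, Rpl35, Rpl41, Rps10, Rps18, Rps24 and Rps7). Between the fractions and day 32 the counts were 12 and 5. In the 4 comparisons within a class 6 to 11 of the 19 had opposite signs and 0 had calls in both directions.

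Rpl22, an RNA-binding protein of the large subunit, is the plainest case. Its brighter probe set had group means of 10.84 in iPSC in 2i/serum, 10.58 at day 32, 12.04 in iPSC with MEFs, 11.62 in Sox2-positive cells and 11.59 in Sox2-negative cells. Its other probe set read 9.34, 9.66, 6.48, 7.42 and 7.04 in the same order, with differences of -2.85 (adjusted p = 1.07e-04) and -2.43 (adjusted p = 4.53e-05) where the first rose. Rpl41 had 4 probe sets above the filter: between iPSC in 2i/serum and iPSC with MEFs the one used read 11.18 and 11.57 and another rose from 10.41 to 11.76, while the other pair fell from 9.8 to 4.41 and from 10.19 to 5.61.

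**Figure D5:**
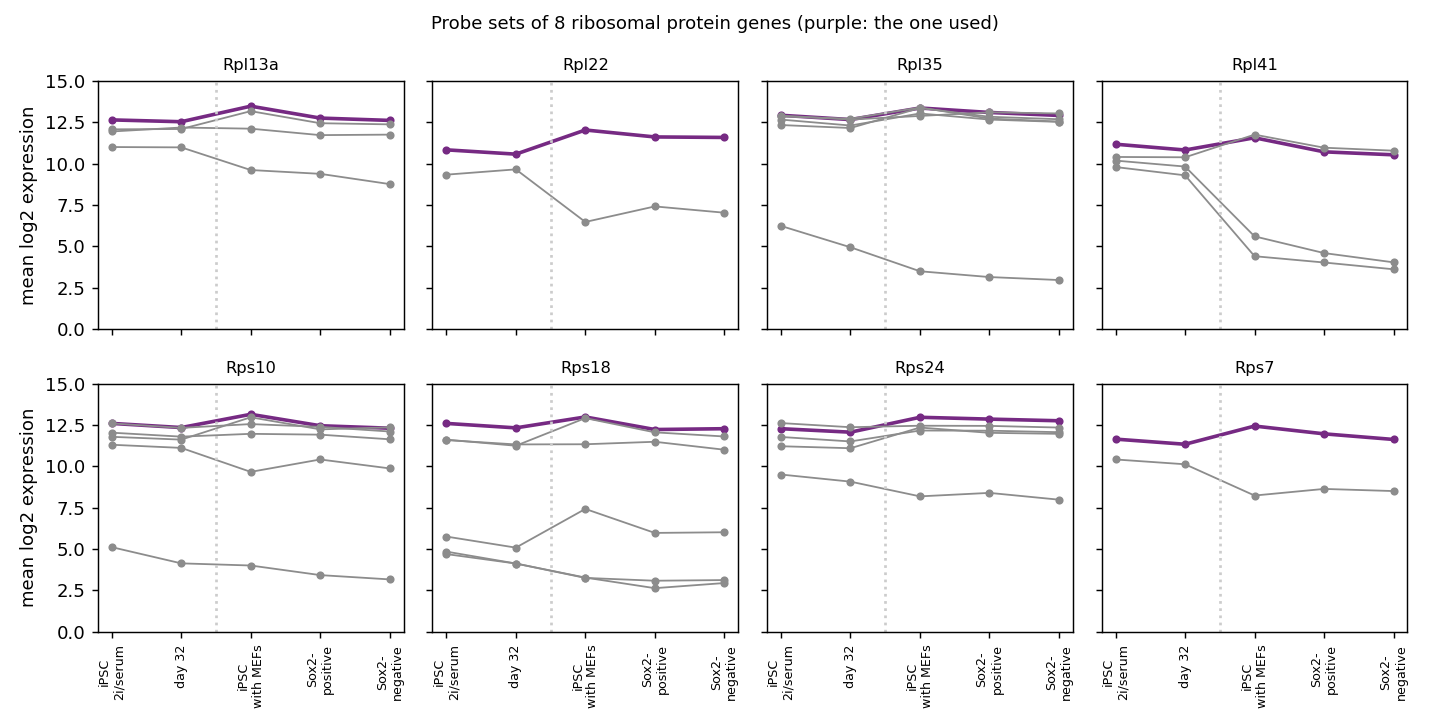
Group means of log2 expression for every kept probe set of the 8 ribosomal protein genes whose probe sets were called in both directions between the iPSC groups, the probe set used for the gene in purple and the others in grey; the dotted line divides the low 18S groups (left) from the high 18S groups (right). In Rpl22 the used probe set rises from 10.84 to 12.04 between the iPSC groups while the other falls from 9.34 to 6.48.

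The direction went with the probe set's mean level over all 10 arrays. That mean includes the compared arrays, so a probe set that falls is placed lower by its own fall. The medians by level are therefore partly set by this grouping. Rpl22's dimmer probe set, for example, had a mean of 7.99 but read 9.34 in iPSC in 2i/serum. Of 94 member probe sets, the 60 with a mean of at least 11 had a median difference of 0.57 between the iPSC groups, the 20 between 8 and 11 one of -0.86, and the 14 below 8 one of -2.46. Between the fractions and day 32 these medians were 0.3, -0.93 and -1.65. Over all kept probe sets the medians in the same order were 0.26, -0.57 and -1.16, and -0.39, -1.28 and -1.39. The rule takes the brightest probe set of each gene, so the members' medians across the classes describe bright probe sets.

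The probe sets that name several genes gave the same picture. Of 102 such probe sets that name a ribosomal protein gene, 98 passed the filter. Their median was 0.16 between the fractions, with 0 called by limma and, at an unadjusted limma p under 0.05, 1 higher and 1 lower. Against iPSC with MEFs it was -0.4 in the Sox2-positive fraction, with 0 higher and 8 lower, and -0.55 in the Sox2-negative fraction, with 0 higher and 29 lower, and between day 32 and iPSC in 2i/serum -0.21, with 0 called and, at that unadjusted p, 0 higher and 3 lower. Across the classes it was 0.24 between the iPSC groups, with 29 higher and 17 lower, and 0.07 between the fractions and day 32, with 19 higher and 23 lower. The share of all 15252 probe sets called was 11.1%, 32.7%, 44.7%, 6.35%, 61.3% and 76.8% in these comparisons, in the order given.

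Genes that make ribosomes, rather than build them, were lower in the fractions than in iPSC with MEFs. Of 30 measured ribosome assembly and rRNA processing genes, 0 were called higher and 21 lower in the Sox2-positive fraction, with a median of -1.55 beside -0.45 over all genes, and 1 higher and 22 lower in the Sox2-negative fraction, with a median of -1.26 beside -0.5. The shares of all tested genes called lower were 29.8% and 35.6%. Eif6, which keeps the large subunit from joining too early, had means of 10.81 in iPSC with MEFs, 8.08 in Sox2-positive cells and 8.66 in Sox2-negative cells, lower by 6.61-fold (adjusted p = 9.98e-04) and 4.44-fold (adjusted p = 6.94e-04). Bysl, a small subunit assembly factor, was lower by 4.56-fold (adjusted p = 0.0012) and 3.96-fold (adjusted p = 6.61e-04). Tsr1, another small subunit assembly factor, was the 1 called higher, by 0.83 in the Sox2-negative fraction (adjusted p = 0.0303). After quantile normalization 0 higher and 9 lower, and 1 higher and 7 lower, were called, where 11% and 20% of all genes were lower.

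Between the fractions themselves 0 of the 30 assembly genes were called, where 12.5% of all tested genes were. At an unadjusted limma p under 0.05, 0 were higher and 2 lower, where 14.5% of all tested genes were higher and 14.4% lower. Between day 32 and iPSC in 2i/serum 1 was called, where 7.73% of all tested genes were. It was Lsg1, a large subunit export factor, which was lower at day 32 by 2.54-fold (adjusted p = 0.0217). At an unadjusted p under 0.05 the count was 0 higher and 15 lower of 30, where 12.5% of all tested genes passed in each direction.

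RNA polymerase I transcribes the ribosomal RNA genes. Of 11 subunits and factors, 0 were called higher and 4 lower in the Sox2-positive fraction against iPSC with MEFs, and 1 higher and 6 lower in the Sox2-negative fraction, where 29.8% and 35.6% of all tested genes were lower. The medians were -0.95 and -1.01, beside -0.45 and -0.5 over all genes. Polr1b, its second largest subunit, had means of 8.08 in iPSC with MEFs, 5.76 in Sox2-positive cells and 5.86 in Sox2-negative cells (4.98-fold, adjusted p = 0.0035, and 4.68-fold, adjusted p = 0.0024). Polr1e differed by -1.89 for the Sox2-positive (adjusted p = 0.0043) and Ubtf by -1.66 for the Sox2-negative fraction (adjusted p = 0.0030), where Taf1b was higher by 1.88 (adjusted p = 0.0259). After quantile normalization 0 higher and 1 lower, and 1 higher and 2 lower, were called, where 11% and 20% of all genes were lower. Between the fractions 0 were called, where 12.5% of all tested genes were. At an unadjusted limma p under 0.05, 0 were higher and 1 lower, where 14.5% of all tested genes were higher and 14.4% lower.

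Other TOP mRNAs, those of translation factors and of a few further proteins, had medians close to those of the members. Of 14 measured, 0 were called higher and 4 lower in either fraction against iPSC with MEFs, where 29.8% and 35.6% of all tested genes were lower. The medians were -0.49 and -0.6, and after quantile normalization 0.17 and 0.1. Eif3a, a subunit of an initiation factor, differed by -1.14 (adjusted p = 0.0058) for the Sox2-positive and by -0.92 (adjusted p = 0.0096) for the Sox2-negative fraction. Nap1l1, a histone chaperone, differed by -1.1 for the Sox2-positive (adjusted p = 0.0106) and Eef1b2, an elongation factor subunit, by -0.94 for the Sox2-negative fraction (adjusted p = 0.0099). Between the fractions 0 were called, where 12.5% of all tested genes were. At an unadjusted limma p under 0.05 the count was also 0, where 14.5% of all tested genes were higher and 14.4% lower. Between day 32 and iPSC in 2i/serum 0 were called, where 7.73% of all tested genes were. At that unadjusted p 1 passed, where 12.5% of all tested genes passed in each direction. Fau, a ubiquitin-like protein fused to a small subunit protein, was called in none of these comparisons, its differences lying between -0.27 and 0.38.

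The mitochondrial ribosomal proteins, which build the separate ribosome of mitochondria, gave 2 called higher and 33 lower of 74 in the Sox2-positive and 2 higher and 34 lower in the Sox2-negative fraction against iPSC with MEFs, with medians of -0.7 and -0.75. Over all tested genes 29.8% and 35.6% were lower, with medians of -0.45 and -0.5. After quantile normalization 3 higher and 8 lower, and 4 higher and 13 lower, were called, where 11% and 20% of all genes were lower. Mrpl16 was lower by 6.82-fold (adjusted p = 8.47e-04) and by 5.7-fold (adjusted p = 1.91e-04). Between the fractions Mrpl18 (1.36, adjusted p = 0.0234) and Mrpl24 (1.16, adjusted p = 0.0494) were called higher in the Sox2-positive fraction and 0 were called lower. Over all tested genes 6.86% were called higher and 5.65% lower there. Between day 32 and iPSC in 2i/serum 1 was called, Mrps18b, at -1.02 (adjusted p = 0.0463), where 7.73% of all tested genes were called. At an unadjusted limma p under 0.05, 0 were higher and 19 lower of 74, where 12.5% of all tested genes passed in each direction. The median there was -0.43, beside -0.1 over all genes. A TOP tract stood exactly at the annotated start in 0 of 65 mitochondrial and 0 of 29 assembly promoters, beside 3.16% of the tested genes. Within 5 bases of the start it stood in 24.6% and 24.1%, beside 24.1% of the tested genes. The other TOP genes, a list of genes known for this tract, held it exactly at the start in 2 of 9 promoters (22.2%).

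Whether the difference between day 32 cells and iPSC itself differed between the array classes was tested with an interaction contrast, the fractions' mean against iPSC with MEFs minus day 32 against iPSC in 2i/serum. In this limma test 0 of 47 members were called, where 12.7% of all tested genes were called, 1.59% higher and 11.1% lower. At an unadjusted p under 0.05 the counts were 1 higher and 2 lower, where 6.01% of all tested genes were higher and 27.4% lower, and the members' median was -0.35 against -0.47 over all genes. A p over the threshold does not show that the differences were equal, since the median standard error of a member was 0.36.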

How the data were processed

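Per the labels, RNA was extracted with Trizol, amplified with one of a pair of NuGEN Ovation kits (V2 or Pico WTA V2), labelled with biotin and hybridised to 10 Affymetrix arrays. The deposited log2 values were made by the authors with GCRMA and affy, per the submitters' processing notes, with versions not given in the sources used here, and ran from 0.58 to 14.51. Of 22690 probe sets, 64 controls, 691 with several symbols and 1555 with none were left out, and 14012 of 20380 exceeded 4 on at least 2 arrays. The brightest kept probe set stood for each of 8599 genes. limma 3.58.1 (R 4.3.3) fitted a mean per group over all arrays with empirical Bayes (residual degrees of freedom 5, prior 4.1), and p-values were adjusted by Benjamini-Hochberg over all genes. On simulated data with these genes, the fit called 10.4% of changes of 1 log2 unit, 80.6% of 2 and 66 of 66 of 4. Few genes were changed there, and only between the fractions, so the adjusted cutoff was stricter than in the real comparisons. The number of arrays limits the precision. Where the lower group was at or below 4 on every array, a fold is given against 4 as at least so many fold, and none where both were. Members and gene lists were chosen with earlier results of these data known, so patterns among them are descriptions. Named genes are the paralog pairs, the stalk and other chosen genes, the 4 largest called rises and falls of a comparison, and of each list the 2 called genes with the lowest adjusted p in a direction. Promoters came from the supplied RefSeq table. The symbols Rps27a and Rpl10l, also on the list of genes to name, and the proteins of the paralogs were not analysed here.

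Alternatives were quantile normalization, centring each array on its median, other filters, the mean of a gene's probe sets, probe sets without a suffix, array weights, the replicate letter as a block, only the compared arrays, and leaving out each array.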

Additional observations from a re-analysis of the deposited data

How the results depend on the processing

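Of the 47 members, those called numbered 1 between the fractions, 7 and 16 in the Sox2-positive and Sox2-negative fraction against iPSC with MEFs, 1 at day 32 against iPSC in 2i/serum, 23 between the iPSC groups, 20 between the fractions and day 32, and 0 in the interaction. Between the fractions the count was 0 with array weights and 0 with only the compared arrays, where day 32 against iPSC in 2i/serum also gave 0. Quantile normalization gave 2 and 5 against iPSC with MEFs and 13 between the iPSC groups, and centring 4, 7, 39 and, between the fractions and day 32, 36. Against iPSC with MEFs the Sox2-positive fraction had 12 calls with no filter and 12 with a filter at 6. Probe sets without a suffix, which left 23 members, gave 8 calls in the Sox2-negative fraction, 3 at day 32 and 14 between the iPSC groups. The interaction gave 1 with array weights and 1 with averaged probe sets. Leaving out single arrays gave counts of 0 to 1 between the fractions, 0 to 3 and 4 to 15 against iPSC with MEFs, 0 to 1 at day 32, 12 to 14 between the iPSC groups, 12 to 21 between the fractions and day 32, and 0 to 1 in the interaction.

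The members' median moved from -0.49 to 0.1 (quantile) and -0.22 (centring) in the Sox2-positive fraction and from -0.61 to -0.06 and -0.36 in the Sox2-negative fraction. Between the iPSC groups it moved from 0.48 to 0.27 and 1.6, to 0.09 with averaged probe sets and to -0.78 without a suffix, and between the fractions and day 32 from 0.12 to 0.48, 1.46, -0.07 and -0.89. Leaving out single arrays gave medians of -0.12 to 0.37 there and, for day 32 against iPSC in 2i/serum, of -0.47 to 0.04. The signs of some genes turned too. With averaged probe sets Rpl22 became -0.83 between the iPSC groups and -0.7 between the fractions and day 32, and there Rps24 became -0.89 without a suffix. With centring Rps25 became 0.21 between the iPSC groups, Rpl22l1 0.4 and Rps27l 0.42 between the fractions and day 32, and Rpl39l 0.01 in the Sox2-negative fraction against iPSC with MEFs. Leaving out single arrays moved Rpl39l between -1.43 and 0.94 there and between -2.29 and 0.04 for day 32 against iPSC in 2i/serum. The cause was not tested.

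The replicate letters did not pair the samples: the differences of replicate a minus b correlated by -0.06 to 0.33 over genes between groups. With the letter as a replicate block 2 members were called between the fractions, the second being Rpl39l (adjusted p = 0.0075), and 1 in the interaction. The interaction uses all arrays, so no fit of the compared arrays alone exists for it. In the simulation with 2 arrays a group, where few genes were changed, most changes of 1 log2 unit were not called. In comparisons with more calls smaller differences passed, such as Rpl38 at -0.76 in the Sox2-negative fraction against iPSC with MEFs. The quantile and centring counts for the lists of other genes were added after the data had been seen.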
